A study of Mus musculus with 18 samples.

Results

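The 10 genes followed here encode receptors by which a cell can hold or sense collagen and other extracellular matrix. The group was drawn up by gene name, with earlier results of these data known. It comprised 10 of the 29875 genes in the count table: Ddr1, Lair1, Mrc1, Mrc2, Oscar, Cd44, Cd36, Itga1, Itga2, and Sdc4. RNA was sequenced from 18 libraries of mouse dendritic cells (DCs), with 3 biological replicates of each of 6 groups. In 4 groups the DCs sat in bovine collagen gels, of 1.7 or 2.6 mg/ml at the lower end and 3.5 or 4.4 mg/ml at the upper end, in a chamber with a gradient of the chemokine CCL19. In the other 2 groups they were kept in the same kind of chamber with no collagen (suspension, 0 mg/ml). All groups shared the source of the cells, which was bone marrow of wild-type C57Bl6/J mice aged 8 to 12 weeks, grown with GM-CSF and treated with LPS (200 ng/ml) from day 8 for 24 hours. RNA was taken 5 hours after the gradient was set up, so every library came from LPS-matured cells and none from resting cells. Such cultures are bulk populations that can hold other myeloid cells. The suspension groups are named here by their titles, plus CCL19 and without CCL19, because the library names state the opposite for each of them, and no CCL19 effect is given. Whether replicates came from separate mice is not given, and p-values measure the spread between these libraries.

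Fibrillar collagen is read by several unrelated receptor families. Discoidin domain receptors are tyrosine kinases that collagen activates slowly, integrins with an alpha 1 or alpha 2 chain link collagen to the cytoskeleton, and LAIR-1 is an inhibitory receptor of leukocytes that recruits tyrosine phosphatases. Mannose receptors take up collagen for degradation, whereas CD44, syndecan-4, and CD36 bind hyaluronan, heparin-binding matrix proteins, and thrombospondin. Migrating DCs can cross collagen gels with little integrin adhesion, and the comparison of gels with suspension asks whether the RNA of these receptors changes with the matrix.

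Total counts ranged from 13062944 to 28059839 per library, and no 2 of the 153 library pairs held identical counts. Levels are given as counts per 1000000 (CPM) of library size scaled by edgeR's TMM method. The 9 DC markers were all present, with a summed level of 15570 to 52440 CPM, and 8 macrophage markers summed to 1166 to 7466 CPM. Eosinophil markers were lower in collagen in 7 of 7 tested, with summed levels of 14.0 to 168 CPM in collagen and 117 to 1339 CPM in suspension. The 6 libraries of a replicate, which hold each group once, share a leading string and a date in their library names. The replicate number may therefore stand for a batch as well. In bulk RNA, fewer cells of a type and less RNA per cell cannot be told apart.

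3 of the receptors were abundant and the others were rare. Per kilobase of exon, syndecan-4 (Sdc4) stood at 37.8 ± 16.8 CPM (mean ± SD, n = 18 libraries), Cd36 at 31.0 ± 10.9, and Cd44 at 24.5 ± 10.0. These 3 did not differ from their neighbours beyond the spread. Every library of each of them lay above every library of the next gene, Lair1, at 1.59 ± 0.934 CPM per kilobase. Below it came Itga1 at 1.04 ± 0.363, Ddr1 at 0.707 ± 0.300, Mrc1 at 0.316 ± 0.229, and Mrc2 at 0.235 ± 0.223 CPM per kilobase, where each gene overlapped the next. Oscar, an activating collagen receptor of myeloid cells, was counted 43 times over all libraries with at most 8 counts in any of them. Itga2, the alpha 2 integrin chain, was counted 23 times with at most 6 counts in a library and was at 0 in 9 of 18 libraries. A count of 0 allows up to 3 counts, which is 0.0941 to 0.256 CPM depending on the library and covers counting error only. Both genes fell below edgeR's filter on low counts, which kept 8 of the 10 receptors and 13844 of all genes for testing.

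**Figure D1:**
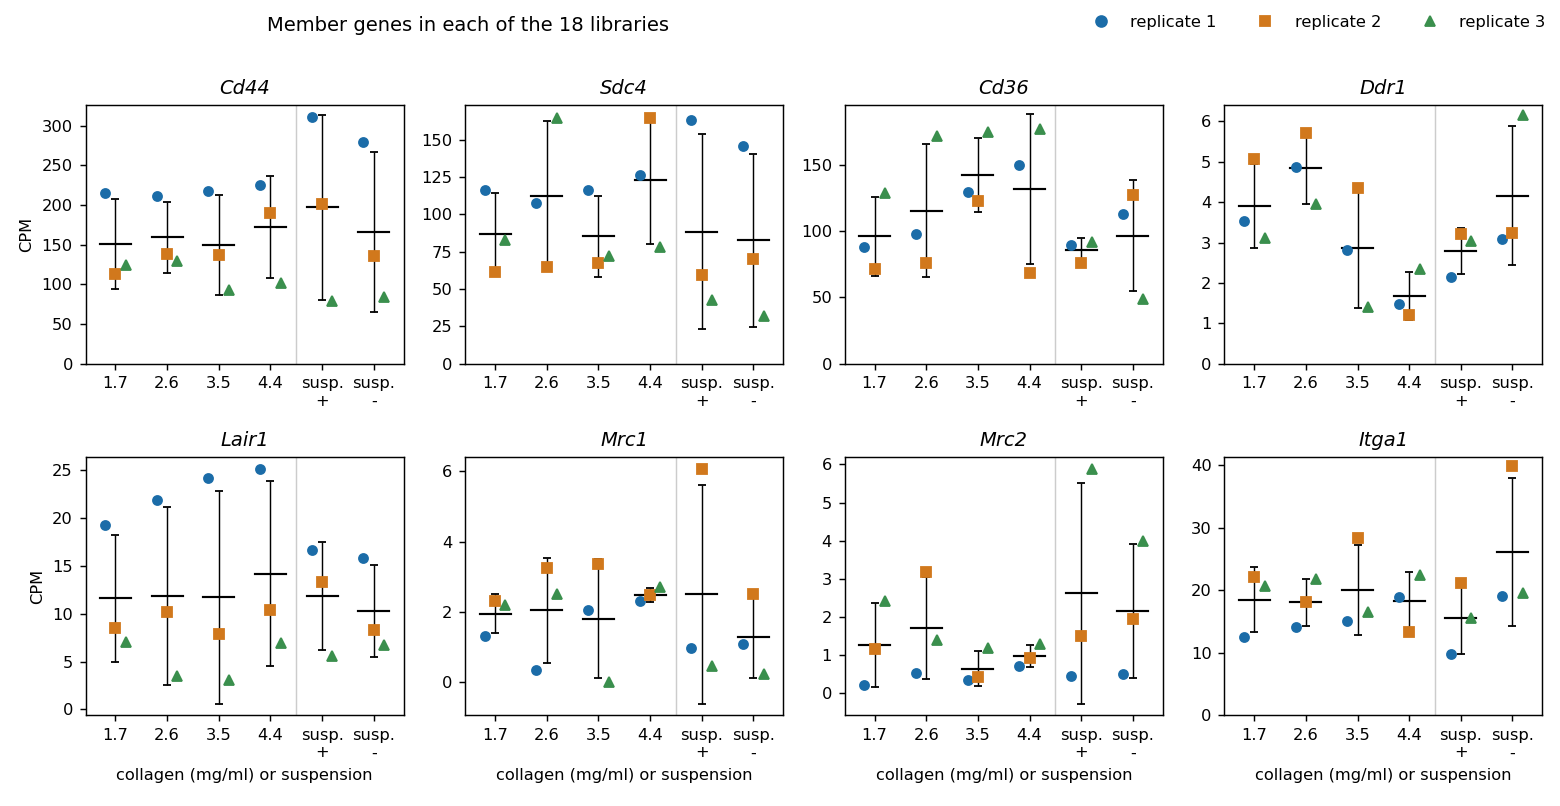
CPM of the 8 receptor genes that passed the filter, in each of 18 libraries (y axis, linear, scale differs by gene), by collagen density in mg/ml or suspension group (x axis; susp. + and susp. - are titled plus and without CCL19). Symbols mark the replicate, bars the group mean, and whiskers the SD of 3 libraries. Cd44 and Lair1 were highest in replicate 1 in every group, and Ddr1 was lowest at 4.4 mg/ml.

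The sequence before the transcription start is shown for 4 of these genes: Sdc4 and Ddr1, whose windows held a motif match, and Lair1 and Cd44, whose levels moved together with the replicate (given further on). RefSeq (GRCm38.p6) gave windows for 9 of the 10 genes, Mrc2 being the exception, with 4 windows for Ddr1. In the 250 bases before each start, 5 motifs were sought on both strands: AP-1 (TGAGTCA), PU.1 (GAGGAAGT), NF-kB (GGGAATTCC), E-box (CACGTG), and TATA box (TATAAA). Capitals mark a match. The windows of Sdc4 and Ddr1 shown here lie inside the gene spans of the GENCODE annotation, which start farther upstream. All 4 windows are on the minus strand and are written 5′ to 3′ along the gene. They lie at chr2:164443189-164443438 (Sdc4), chr17:35702045-35702294 (the third window of Ddr1 from the 5′ end), chr7:4063205-4063454 (Lair1), and chr2:102901666-102901915 (Cd44).
Sdc4: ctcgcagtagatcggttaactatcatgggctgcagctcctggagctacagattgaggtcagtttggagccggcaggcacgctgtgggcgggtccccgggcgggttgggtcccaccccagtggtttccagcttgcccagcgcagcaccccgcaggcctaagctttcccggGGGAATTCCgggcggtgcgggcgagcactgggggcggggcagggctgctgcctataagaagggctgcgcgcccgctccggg
Ddr1: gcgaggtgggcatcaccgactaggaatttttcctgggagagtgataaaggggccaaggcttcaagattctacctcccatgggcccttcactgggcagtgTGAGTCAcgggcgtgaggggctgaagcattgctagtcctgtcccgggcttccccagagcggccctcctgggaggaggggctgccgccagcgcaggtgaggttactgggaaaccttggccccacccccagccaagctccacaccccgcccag
Lair1: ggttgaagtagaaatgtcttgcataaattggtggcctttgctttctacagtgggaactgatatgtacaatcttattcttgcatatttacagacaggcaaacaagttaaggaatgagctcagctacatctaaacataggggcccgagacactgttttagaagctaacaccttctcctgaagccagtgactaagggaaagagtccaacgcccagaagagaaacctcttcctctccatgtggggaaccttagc
Cd44: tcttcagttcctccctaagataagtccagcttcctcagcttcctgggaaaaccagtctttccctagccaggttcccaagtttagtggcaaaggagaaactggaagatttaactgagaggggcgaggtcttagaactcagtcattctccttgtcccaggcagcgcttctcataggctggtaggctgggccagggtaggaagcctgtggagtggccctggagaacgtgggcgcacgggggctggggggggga
The NF-kB letters occurred in the Sdc4 window, as in 0.21% of the 32851 windows of this length in the table. The AP-1 letters occurred in 1 of 4 Ddr1 windows, as in 4.46% of all windows. None of the windows of the other 7 genes held any of the 5 motifs, which 2.44% (PU.1), 6.02% (E-box), and 12.4% (TATA box) of all windows held. A match is a run of letters and was not tested as a binding site.

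Collagen was first compared with suspension, as the mean of the 4 gel groups minus the mean of the 2 suspension groups. None of the 8 receptors tested passed a false discovery rate (FDR) of 0.1 in edgeR's quasi-likelihood test, whereas 20.2% of all genes did, and 0 of 8 had an unadjusted p under 0.05. With the replicate number as a block in the model, 1 of 8 passed, Mrc2, against 34.8% of all genes. The median absolute log2 fold change of the 8 receptors was 0.205, beside 0.406 over all genes tested. With the block these medians were 0.229 and 0.401. No test was made of these medians.

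Mrc2 (Endo180, an endocytic receptor that carries collagen to lysosomes; GRCm38 chr11:105292643-105351139) had the lowest fold change of the group. The 12 collagen libraries held 0.231 CPM at the lowest, 1.05 at the median, and 3.18 at the highest, and the 6 suspension libraries 0.460, 1.73, and 5.89 CPM. The ranges overlapped, and the highest values were both suspension libraries of replicate 3, at 5.89 and 4.0 CPM. The log2 fold change was -1.12 ± 0.56 (SE, adjusted p = 0.204, edgeR), and with the replicate block -0.84 ± 0.36 (adjusted p = 0.097). The difference lay mostly in replicate 3: within replicates it was -0.03 ± 0.68, -0.28 ± 0.61, and -1.64 ± 0.57 (replicates 1, 2, and 3), and the libraries overlapped in replicates 1 and 2. Over all replicates Mrc2 had an exact two-sided permutation p of 0.0462 when libraries were exchanged within replicates (3375 arrangements) and 0.189 when they were exchanged freely (18564 arrangements). The first value was the smallest among the 8 receptors tested and was not adjusted for their number. The next by the same permutation test was 0.124, for Cd36. In all, 543 reads were counted for this gene. The blocked call held in 5 of 18 fits that left out a library and was weakest without suspension titled plus CCL19 replicate 3, where the log2 fold change was -0.514 (adjusted p = 0.397). With GC and length offsets beside the block it was -0.544 (adjusted p = 0.271).

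By density, Mrc2 read 0.231, 1.16, and 2.42 CPM at 1.7 mg/ml (replicates 1, 2, and 3), 0.540, 3.18, and 1.41 at 2.6, 0.343, 0.421, and 1.19 at 3.5, and 0.722, 0.939, and 1.3 at 4.4 mg/ml. Replicate 1 was the lowest in each of these groups. Against suspension, the gel of 3.5 mg/ml gave a log2 fold change of -1.86 ± 0.92 (adjusted p = 0.305, edgeR) and -1.61 ± 0.59 with the block (adjusted p = 0.0844), a call kept in 9 of 18 fits with a library left out and weakest without 3.5 mg/ml replicate 2 (-1.3, adjusted p = 0.314). The value of 3.18 CPM came from the library of 2.6 mg/ml replicate 2, in which 8 fibroblast markers summed to 130 CPM, against 8.12 to 21.2 CPM in the others. Without that library and with the block, collagen against suspension was -1.05 (adjusted p = 0.039, edgeR). This library was left out after its values were seen, and the part of these cells in the Mrc2 level was not tested. The same library held the highest collagen value of Ddr1, 5.71 CPM, and 6 of the 23 Itga2 counts. The part of these cells in those values was not tested either.

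The mannose receptor Mrc1 (CD206), a relative of Mrc2 that also takes up glycoproteins, did not pass the test. It held 0 CPM at the lowest, 2.31 at the median, and 3.37 at the highest in collagen, and 0.232, 1.03, and 6.08 CPM in suspension. The only library at 0 was 3.5 mg/ml replicate 3, and the highest was suspension titled plus CCL19 replicate 2. The log2 fold change was 0.21 ± 0.68 (adjusted p = 0.874, edgeR), with a wide 95% interval of -1.22 to 1.64.

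Ddr1, the discoidin receptor tyrosine kinase (GRCm38 chr17:35681567-35704621), was lowest in the densest gel. It read 3.54, 5.07, and 3.10 CPM at 1.7 mg/ml (replicates 1 to 3), 4.86, 5.71, and 3.95 at 2.6, 2.81, 4.35, and 1.42 at 3.5, and 1.49, 1.19, and 2.35 at 4.4 mg/ml. Suspension titled plus CCL19 read 2.15, 3.22, and 3.03 CPM, and suspension titled without CCL19 3.09, 3.23, and 6.14 CPM. The 3 libraries at 4.4 mg/ml lay below all libraries at 1.7 and 2.6 mg/ml and overlapped the suspension libraries only through replicate 3. This separation was read after the values were seen, and its share over all genes was not counted. Taken over all densities, collagen and suspension did not differ by the test (log2 fold change -0.14 ± 0.28, adjusted p = 0.789, edgeR), and this value turned to 0.129 with GC and length offsets.

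At 4.4 mg/ml against suspension, Ddr1 had a log2 fold change of -1.01 ± 0.41 (adjusted p = 0.136, edgeR) and of -0.98 ± 0.39 with the replicate block (adjusted p = 0.0782), a fold of 0.505. In this comparison 0 of 8 receptors were called without the block and 1 with it, where 14.8% and 31.9% of all genes were called. The call held in 13 of 18 blocked fits with a library left out, and it was lost without 4.4 mg/ml replicate 1 or 2 (adjusted p = 0.155 and 0.265), suspension titled plus CCL19 replicate 2 or 3 (0.108 and 0.129), or suspension titled without CCL19 replicate 3 (0.176). With GC and length offsets beside the block the value was -0.677 (adjusted p = 0.202). Along the 4 densities Ddr1 had a slope of -0.49 ± 0.16 log2 units per mg/ml, which did not pass the threshold (adjusted p = 0.466, edgeR; with the block -0.48, adjusted p = 0.167).

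Lair1, the inhibitory collagen receptor, differed little between collagen and suspension. The collagen libraries held 3.05, 9.34, and 25.2 CPM (lowest, median, highest) and the suspension libraries 5.60, 10.8, and 16.6 CPM, so that all of the suspension range lay inside the collagen range. The log2 fold change was 0.15 ± 0.45 (adjusted p = 0.861, edgeR) and with the block -0.02 ± 0.20 (adjusted p = 0.962), with a 95% interval of -0.443 to 0.408.

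Cd44, the hyaluronan receptor, was the most counted receptor, with 54628 counts in all. It held 93.1, 138, and 226 CPM in collagen (lowest, median, highest) and 79.1, 168, and 311 CPM in suspension. Both the lowest and the highest library of the whole set were suspension libraries. The log2 fold change was -0.20 ± 0.31 (adjusted p = 0.724, edgeR), and with the block -0.08 with a 95% interval of -0.427 to 0.258.

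Sdc4, a heparan sulfate proteoglycan that works with integrins at adhesion sites, held 61.5, 95.1, and 164 CPM in collagen and 32.2, 64.6, and 163 CPM in suspension. The 2 lowest libraries were suspension libraries of replicate 3, at 42.7 and 32.2 CPM. The log2 fold change was 0.23 ± 0.34 (adjusted p = 0.703, edgeR) and 0.41 ± 0.27 with the block (adjusted p = 0.284). At 4.4 mg/ml it read 126, 164, and 78.4 CPM, with a log2 fold change of 0.52 ± 0.46 (adjusted p = 0.513, edgeR; 1.34 without replicate 1, adjusted p = 0.0727).

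Cd36, a scavenger receptor for thrombospondin and oxidized lipids, held 68.7, 126, and 177 CPM in collagen and 48.9, 90.7, and 127 CPM in suspension. The 6 highest libraries were all collagen libraries, yet the ranges overlapped. The log2 fold change was 0.40 ± 0.25 (adjusted p = 0.324, edgeR; exact permutation p = 0.133), and by density it was 0.08 at 1.7 mg/ml, 0.34 at 2.6, 0.65 at 3.5, and 0.53 at 4.4 mg/ml, where none passed the test. Itga1, the alpha 1 integrin chain, held 12.6, 18.6, and 28.4 CPM in collagen and 9.76, 19.3, and 39.9 CPM in suspension, with a log2 fold change of -0.11 ± 0.24 (adjusted p = 0.814, edgeR). The Itga1 locus holds Pelo on the same strand, which had 1272 counts of its own beside 6549 for Itga1, and how reads in both were assigned is not given.

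**Figure D2:**
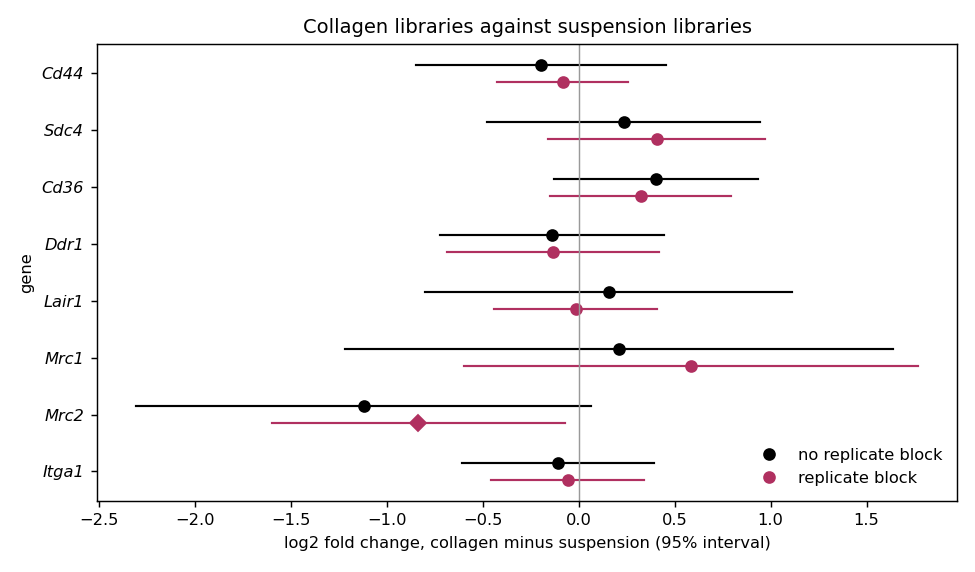
Log2 fold change of collagen (12 libraries) minus suspension (6 libraries) on the x axis for the 8 receptor genes tested (y axis), without (black) and with (red) the replicate block. Points are estimates, lines 95% intervals, and a diamond marks an adjusted p under 0.1. Mrc2 with the block, at -0.84, is the only diamond.

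Single densities added few calls. Without the block, 0 of 8 receptors were called at 1.7, 2.6, and 3.5 mg/ml against suspension, where 0.0361%, 7.87%, and 4.9% of all genes were called. With the block 0, 0, and 1 (Mrc2) were called, where 2.91%, 21.6%, and 18.4% of all genes were. For the linear trend over density, 0 of 8 were called in either fit (0.00722% of all genes without the block and 1.45% with it), and likewise for 4.4 against 1.7 mg/ml (0.00722% and 1.73%). Without the block, Ddr1 was the only receptor with an unadjusted p under 0.05 in the trend, at 4.4 mg/ml, and in 4.4 against 1.7 mg/ml, and 0 receptors had one in the other comparisons. DESeq2 without the block called 1 receptor at 4.4 mg/ml (Ddr1, adjusted p = 0.0938) and 0 in each of the others. For Ddr1 the difference of 4.4 from 1.7 mg/ml was -1.21 ± 0.46 on the log2 scale (adjusted p = 0.516, edgeR). Any difference among the 6 groups was called for 0 of 8 receptors, against 4.9% of all genes, and with the block for 0 of 8 against 24.3%. The suspension groups differed in 0 receptors and in 0% of all genes, with and without the block, while 855 and 1960 genes had an unadjusted p under 0.05 without and with it. The receptor difference farthest from 0 (titled without minus titled plus CCL19) was that of Mrc1 without the block, at -0.95 ± 1.11 (adjusted p = 0.845, edgeR), and that of Itga1 with it, at 0.76 ± 0.31 (adjusted p = 0.328, edgeR).

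Most of these receptors differed between the replicates. A test of the replicate term, chosen after seeing the data, called 6 of 8 receptors and 48.3% of all genes. Lair1 showed it most plainly: it read 15.8 to 25.2 CPM in the 6 libraries of replicate 1, 7.87 to 13.3 in replicate 2, and 3.05 to 7.04 in replicate 3, with no overlap between any of the 3. Relative to replicate 1, the log2 difference of Lair1 was -1.08 in replicate 2 and -1.93 in replicate 3 (adjusted p = 3.16e-05, edgeR). Cd44 had means of 243 ± 41.8, 152 ± 34.9, and 102 ± 20.8 CPM (SD, n = 6) in replicates 1, 2, and 3 (adjusted p = 0.000239, edgeR). Mrc2 had the reverse order, with 0.466 ± 0.169, 1.53 ± 0.962, and 2.7 ± 1.89 CPM (adjusted p = 0.00203, edgeR). Sdc4 (adjusted p = 0.0486), Itga1 (0.062), and Mrc1 (0.0968) also passed in edgeR, whereas Cd36 (0.262) and Ddr1 (0.644) did not. Only Lair1, Mrc2, and Cd44 passed when either suspension library of replicate 1 was left out.

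As a share of the variance of log2 CPM, the replicate accounted for 84.0% in Lair1, 79.8% in Cd44, and 59.5% in Mrc2, where the median over all genes tested was 25.5%. In Ddr1 it accounted for 3.3% and the group for 60.9%, where the median gene had 33.6% for the group. The macrophage marker list moved with the replicate too, with summed levels of 4606 to 7009 CPM in replicate 1, 1681 to 7466 in replicate 2, and 1166 to 2994 in replicate 3. Platelet markers ran the same way, with 132 to 255, 25.2 to 137, and 15.8 to 91.4 CPM in replicates 1, 2, and 3. Lymphocyte and NK cell markers ran the other way, with 0.722 to 1.3, 1.53 to 5.72, and 3.23 to 12.5 CPM, and neutrophil markers summed to 633 to 1576 CPM in replicate 1 against 1389 to 9746 and 1545 to 3978 CPM in replicates 2 and 3. The DC markers summed to 15570 to 35300, 21810 to 42950, and 22420 to 52440 CPM. The part of these cells in the levels of Lair1, Cd44, and Mrc2 was not tested.

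**Figure D3:**
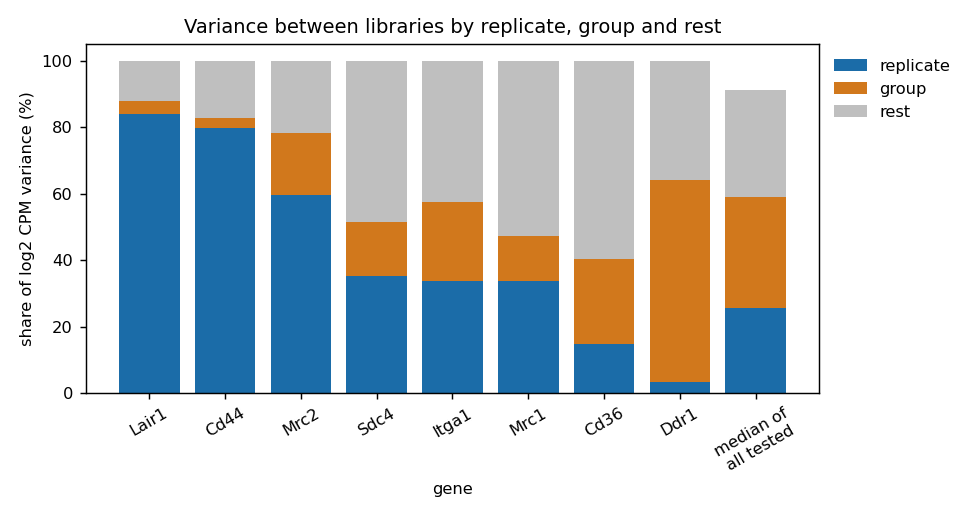
Share of the variance of log2 CPM over 18 libraries (y axis, percent) that goes with the replicate, with the group, and with neither, for the 8 receptor genes and for the median of all genes tested (x axis). The medians are taken part by part, so the last bar does not add up to the full height. The replicate share runs from 84.0% in Lair1 to 3.3% in Ddr1.

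Within single replicates, the estimates of collagen minus suspension did not all have the same sign. Their variation between replicates did not pass correction (given below). In a fit with a separate collagen difference for each replicate, also chosen after seeing the data, 0 receptors were called in replicate 1 (10.3% of all genes), 0 in replicate 2 (0.795%), and 3 in replicate 3 (13.4%). This fit pooled the 4 gel densities, and the 2 suspension groups, within each replicate. Each value thus rests on 1 biological replicate, and its p-value measures the spread between libraries within replicates, not between replicates. In replicate 3, Cd36 read 129 to 177 CPM in 4 collagen libraries and 48.9 and 92.0 CPM in the 2 suspension libraries (log2 fold change 1.21 ± 0.34, adjusted p = 0.0399, edgeR). Sdc4 read 71.9 to 164 CPM in collagen and 32.2 and 42.7 CPM in suspension (1.41 ± 0.40, adjusted p = 0.0442, edgeR). Mrc2 was lower there, at 1.19 to 2.42 against 4.0 and 5.89 CPM (-1.64 ± 0.57, adjusted p = 0.085, edgeR). None of these 3 overlapped between collagen and suspension in replicate 3, and neither did Cd44, which was not called. With 4 against 2 libraries such separation can arise by chance, and its share over all genes was not counted. Mrc1 had the value farthest from 0 there, 2.4 ± 0.97, on counts of 0 to 80 per library, and was not called (adjusted p = 0.134, edgeR).

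In replicate 1, Sdc4 lay the other way, with 108 to 126 CPM in collagen below 146 and 163 CPM in suspension (log2 fold change -0.41 ± 0.37, adjusted p = 0.554, edgeR). Cd44 had the same form: 211 to 226 CPM in collagen lay below 279 and 311 CPM in suspension in replicate 1 (-0.44 ± 0.24, adjusted p = 0.282, edgeR), and 93.1 to 129 CPM lay above 79.1 and 84.5 CPM in replicate 3 (0.46 ± 0.25, adjusted p = 0.259, edgeR). Lair1 in collagen lay above suspension in replicate 1, at 19.3 to 25.2 against 15.8 and 16.6 CPM, and overlapped it in the others. Such separation can arise by chance here too, and its share over all genes was not counted. The test of whether the collagen difference itself varied between replicates called 0 receptors and 0% of all genes, with adjusted p = 0.6 for Sdc4, 0.612 for Cd36, and 0.669 for Cd44 in edgeR. An unadjusted p under 0.05 was found for these 3 of the 8 receptors and for 998 of 13844 genes. These differences between replicates thus did not pass the correction.

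**Figure D4:**
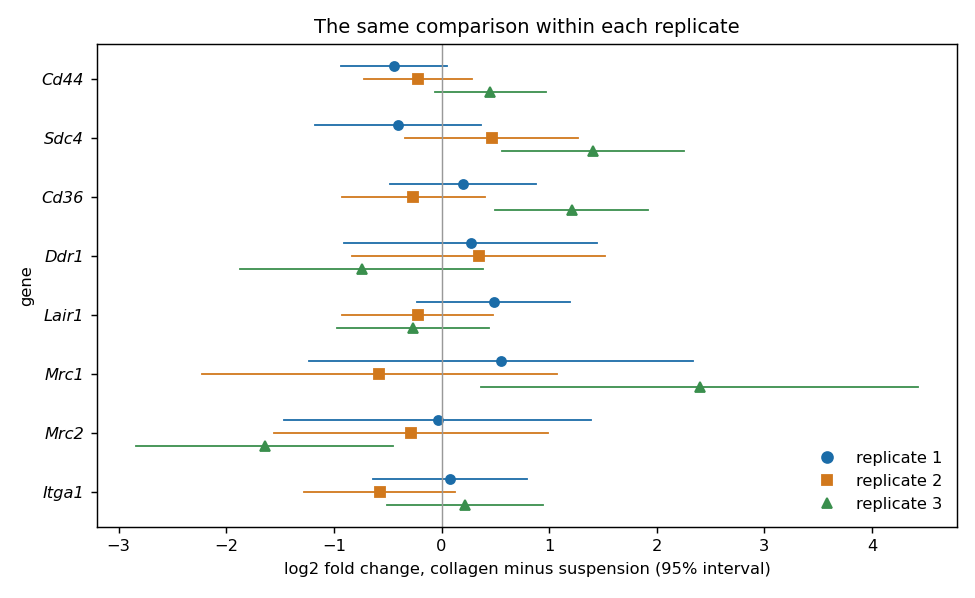
Log2 fold change of collagen (4 libraries) minus suspension (2 libraries) within each replicate (x axis) for the 8 receptor genes (y axis), with 95% intervals. Replicate 3 holds the values farthest from 0, at 2.4 for Mrc1, which was not called, and at 1.41 for Sdc4, 1.21 for Cd36, and -1.64 for Mrc2.

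Of 30 other matrix receptors 24 were tested, and 6 passed between collagen and suspension, 2 higher and 4 lower, a share near the 20.2% of all genes called, with a median log2 fold change of -0.02 against 0.00269 over all genes. With the block 10 passed, 5 in each direction, where 34.8% of all genes were called. The count without the block was 3 after leaving out any 1 of 1.7 mg/ml replicate 3, 2.6 mg/ml replicate 3, both suspension libraries of replicate 1, or suspension titled plus CCL19 replicate 3, and 2 without suspension titled without CCL19 replicate 2. The 2 higher without the block were the class A scavenger receptors Msr1 (1.53 ± 0.54, adjusted p = 0.0701, edgeR) and Marco (1.26 ± 0.43, adjusted p = 0.0597). Marco held 150, 402, and 641 CPM in collagen and 44.8, 127, and 311 CPM in suspension (lowest, median, highest), and the call was lost (adjusted p of 0.12 to 0.138) without any 1 of 4 suspension libraries, those of replicates 2 and 3.

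The 4 lower ones were the endocytic receptors Stab1 (-1.40) and Lrp1 (-0.99) and the laminin-binding integrin chains Itga3 (-0.91) and Itga6 (-0.91). Itga6 had the smallest p, with 4.72 ± 1.17 CPM in collagen (SD, n = 12) and 8.79 ± 2.92 in suspension (n = 6; adjusted p = 0.0166, edgeR; 0.103 without replicate 1 and 0.148 without replicate 2). Lrp1 lost its call without suspension titled plus CCL19 replicate 1, where the log2 fold change was -0.386 (adjusted p = 0.427, edgeR). Itgb1, the chain that pairs with Itga1 and Itga2, was abundant at 671 ± 296 CPM in collagen and 543 ± 237 in suspension (log2 fold change 0.32 ± 0.32, adjusted p = 0.566, edgeR).

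Of 24 genes for signalling partners of the receptors, all were tested and 9 passed, 2 higher and 7 lower in collagen, where 20.2% of all genes were called, with a median log2 fold change of -0.17. With the block 11 passed, where 34.8% of all genes were called. Inpp5d (SHIP-1), a lipid phosphatase that acts below inhibitory receptors, had the smallest p and fell from 225 ± 30.6 CPM in suspension to 115 ± 24.8 in collagen (log2 fold change -0.97 ± 0.16, adjusted p = 0.0016, edgeR). Its 2 ranges did not overlap, the 6 suspension libraries starting at 193 CPM and the 12 collagen libraries ending at 145 CPM. Inpp5d was named for its p in this same comparison, so the separation is not separate support. The share of all genes with such a separation was not counted. The Inpp5d call was kept under every alternative run. Tln1 (talin, which activates integrins) was lower (log2 fold change -0.615, adjusted p = 0.0187, edgeR; -0.303 with GC and length offsets, adjusted p = 0.22). Sdcbp (syntenin, which binds the syndecan tail) was higher, by 0.742 on the log2 scale (adjusted p = 0.0201, edgeR; 0.524 without replicate 1, adjusted p = 0.22). Without suspension titled without CCL19 replicate 3 the count over the list was 5.

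The linkers of CD44 to actin had estimates in different directions, and no test compared them with each other. Ezr (ezrin) was lower (-0.74 ± 0.23, adjusted p = 0.045, edgeR). This call was lost with GC and length offsets (-0.57, adjusted p = 0.187), without replicate 2 or 3 (adjusted p = 0.285 and 0.179), and without suspension replicate 3 of either title (adjusted p = 0.163 plus and 0.167 without CCL19). Rdx (radixin) was higher (0.79 ± 0.30, adjusted p = 0.0933, edgeR), a call lost without most single libraries (adjusted p of up to 0.182). Msn (moesin), the most abundant by CPM, had 841 ± 189 CPM in collagen and 785 ± 135 in suspension (0.10 ± 0.17, adjusted p = 0.746). Among partners of LAIR-1 and OSCAR, the kinase Csk was lower (-0.46 ± 0.16, adjusted p = 0.0696, edgeR). Ptpn6 (SHP-1) had a log2 fold change of -0.54 (adjusted p = 0.150, edgeR; with the block -0.46, adjusted p = 0.0655; without replicate 1 -0.711, adjusted p = 0.0782), and Ptpn11 (SHP-2) of -0.23 (0.495; with the block 0.256). The adaptor Fcer1g had a log2 fold change of 0.77 (adjusted p = 0.143, edgeR; with the block 0.69 and 0.0343), and it was called without the block in DESeq2 (adjusted p = 0.0702) and in edgeR with no filter on low counts (adjusted p = 0.0683).

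Of 19 matrix ligand genes 14 were tested, and 0 passed between collagen and suspension in edgeR without the block, with 3 at an unadjusted p under 0.05 and 2 called by DESeq2. With the block 7 of 14 passed in edgeR, where 34.8% of all genes were called: Spp1 (1.35), Vcan (0.91), Lum (0.74), C1qa (0.87), C1qb (1.01), and C1qc (0.91) were higher, and Col4a1 was lower (-0.92). The median log2 fold change of the list was 0.69 without the block. Along the densities 0 genes passed in any of the 3 lists in edgeR, with or without the block, and 0, 2, and 0 genes of the receptor, partner, and ligand lists were at an unadjusted p under 0.05 without it. Markers of cell types were also compared between collagen and suspension, where 20.2% of all genes were called without the block and 34.8% with it. Beside the eosinophil markers given above, 4 of 8 macrophage markers were higher and 1 lower with the block (0 and 1 without it), with summed levels of 1379 to 7466 CPM in collagen and 1166 to 6220 CPM in suspension. With the block, 3 of 7 basophil and mast cell markers and 2 of 9 neutrophil markers were lower (1 and 2 without it), and 2 of 6 fibroblast markers tested were higher (0 without it). Of 9 DC markers 1 was higher and 1 lower with the block (0 and 1 without it). Of 3 platelet markers tested 2 were higher and 1 lower (1 and 0 without it). Of 3 lymphocyte and NK cell markers tested 1 was lower (0 without it). The part of these cells in the lists, Msr1, Marco, and the C1q genes included, was not tested.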

How the data were processed

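The authors aligned single-end reads of 50 bases from stranded mRNA libraries to GRCm38 with STAR 2.7.0f and deposited unnormalized counts for each Ensembl gene as whole numbers. The methods name RSEM for TPM values, which are not used here. Whether the deposited counts also came from RSEM is not stated, nor is the handling of reads that match overlapping genes. Symbols, exon lengths, and GC content came from GENCODE M21 on the same build (29850 of 29875 genes matched).

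From the deposited counts, R 4.3.3 and edgeR 4.0.16 gave TMM-scaled CPM and the quasi-likelihood F-test after filterByExpr, in 1 fit over all 18 libraries, with Benjamini-Hochberg adjustment over 13844 genes and an FDR of 0.1. Standard errors came from the F statistic. DESeq2 1.42.0 was an alternative. A prior count of 2 was added for log2 CPM, and permutation tests were two-sided and exact. Groups came from the sample titles. Replicate numbers pair the libraries through a leading string and a date shared in the library names. Deviations from the group means correlated with a mean r of 0.434 across genes between libraries of the same number, with a lowest r of -0.149. Between libraries of other numbers and other groups the mean r was -0.214. Centring each group on its own mean forces the second mean below 0 when the first is above it, so it adds no support. The block lowered the biological coefficient of variation from 49% to 33.1%. The replicate tests and the blocked fits with a library left out were chosen after seeing the data. The receptors, lists, and rules were chosen with earlier results of these data known. Genes were named by rule: all 10 receptors, their direct partners, and up to 3 genes of each list with the smallest p among those called. Msr1, Stab1, Itga3, and the ligands called with the block were named after their values were seen. The rule also asked for the genes most like each receptor called in the fit without the block, and there was none. The fits were run on simulated data as a check of the code, with replicate shifts not matched to those of these receptors. No result here rests on that run. Floors of 3 counts cover counting error only.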

Additional observations from a re-analysis of the deposited data

Results flagged for a closer look

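Among the 6 suspension libraries, Ddr1 in the library titled without CCL19 replicate 3 lay far from the others. It read 6.14 CPM from 106 counts, and the nearest suspension library read 3.23 CPM. Its gap as a share of the range was 0.728, above the 95% critical value of Dixon's test. Of 10 receptors examined in this way 1 was past the critical value, where chance gives about 1 in 20. Without this library the blocked log2 fold change of Ddr1 at 4.4 mg/ml against suspension was -0.742 (adjusted p = 0.176, edgeR).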

How the results depend on the processing

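Without the replicate block 0 receptors passed in any group comparison, and with the replicate block 1 passed in collagen against suspension (Mrc2), 1 at 3.5 mg/ml (Mrc2), and 1 at 4.4 mg/ml (Ddr1), while the block changed no other receptor call. The block paired with other choices gave, in DESeq2, 1 receptor for any difference (Ddr1), 1 for collagen, 1 for the trend (Ddr1), 1 at 3.5 mg/ml, and 2 at 4.4 mg/ml (Ddr1 and Sdc4), and with GC and length offsets 1 for any difference (Ddr1). DESeq2 without the block called 1 at 4.4 mg/ml, and leaving out libraries or replicates gave 0 to 1 there, Sdc4 being called without replicate 1. The replicate term called 3 to 6 receptors with a library left out, and the collagen by replicate interaction called 1 with no filter on low counts (Sdc4).

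For the lists in collagen against suspension, the other matrix receptors called numbered 6, and 10 with the block, 11 in DESeq2 with the block, 1 at an FDR of 0.05, 2 with GC and length offsets, 12 with these and the block, and 0 to 6 with libraries or replicates left out (0 without replicate 2). The signalling partners numbered 9, 4 with GC and length offsets, and 2 to 9 with libraries or replicates left out. The matrix ligands numbered 0, 7 with the block, 2 in DESeq2, 7 in DESeq2 with the block, 9 with no filter on low counts, 6 with GC and length offsets and the block, and 0 to 2 with libraries or replicates left out.

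Of the log2 fold changes of collagen against suspension, none that changed direction was past the threshold. Lair1 was -0.0172 with the block and -0.0365 with GC and length offsets and the block. Ddr1 was 0.129 and 0.180 with these offsets without and with the block. Against the suspension group titled plus CCL19 alone, Ddr1 was 0.144, Mrc1 -0.262, and Itga1 0.270. With libraries or replicates left out, Lair1 ranged from -0.203 to 0.4, Cd44 from -0.390 to 0.114, Itga1 from -0.265 to 0.183, Ddr1 from -0.314 to 0.158, Mrc1 from -0.222 to 1.22, Cd36 from -0.00841 to 0.697, Sdc4 from -0.121 to 0.884, and Ptpn11 from -0.354 to 0.0318. The causes were not tested. For single densities 118 of 928 values under the alternatives changed sign and 7 were newly called; for the trend 14 of 232 changed sign and 1 was newly called. No value that changed sign was called. With 43 counts for Oscar and 23 for Itga2 in all, depth limits any statement on these receptors.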
